A study of Homo sapiens with 12 samples.

Results

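The guide pools of OE19 and N87 cells were compared as they stood after puromycin selection and before any drug, in 4 of the 12 libraries of the series: OE19 baseline replicates 1 and 2 and N87 baseline replicates 1 and 2. The libraries were taken by their labels and not by any measured value, and all 123411 single-guide RNA (sgRNA) entries of the count table entered the description. Both are established human cell lines with amplified HER2 (ERBB2), OE19 from an adenocarcinoma of the gastro-oesophageal junction and N87 from a gastric carcinoma, and the labels call both gastric. Each had been infected with the GeCKO v2 knockout library at a multiplicity of infection of about 0.3, in separate infections for each replicate, and kept in puromycin for 7 days at 1.5 µg/mL for OE19 and 0.75 µg/mL for N87. The puromycin dose, the infection and the cell line therefore differed together and cannot be told apart in this comparison. The study went on to treat the cells with lapatinib or vehicle (DMSO) for 14 days. The vehicle libraries, OE19 replicates 1 and 2 and N87 replicates 1 and 2, come from the same infections and serve here as a later look at the same line difference.

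In a pooled knockout screen each cell carries a lentiviral insert that encodes Cas9 and an sgRNA, and the abundance of an sgRNA in genomic DNA follows the growth of the cells that carry it. sgRNAs against genes that every cell needs, such as those of the ribosome, proteasome and spliceosome, are lost from the pool as the knockout cells die or stop dividing. Cas9 cuts are themselves a burden to the cell, and sgRNAs that cut a highly amplified stretch of the genome, or many places at once, are known to be depleted whichever gene they target. Control guides that target no gene were used as the level against which loss is read, and they do not measure the burden of cutting.

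The count table held 2000 control guide entries and sgRNAs for 20915 gene names, most with 6 sgRNAs, divided between library A and library B. Total counts were 23851874 and 24780798 in the OE19 libraries, against 33743599 and 29658838 in the N87 libraries, and the median count per sgRNA was 168 and 176 in OE19, against 238 and 208 in N87. No plasmid library was used here. A level below the control guides therefore mixes early loss with the representation of the sgRNAs in the starting pool. A difference between the lines is free of that representation only as far as the separate infections began with the same pool, which was not tested. Library A made up 49.5% and 51.1% of gene-targeting counts in OE19, against 51.6% and 51.7% in N87.

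The pools were nearly alike in shape. The Gini index, which is 0 when all sgRNAs are equally abundant, was 0.353 and 0.350 in OE19, against 0.353 and 0.357 in N87. On the log2 scale, normalized counts had an interquartile range of 1.34 and 1.34 in OE19 and 1.35 and 1.38 in N87. sgRNAs under an eighth of the library's median made up 1.81% and 1.75% of the OE19 pools and 1.92% and 1.99% of the N87 pools, and 36 and 32 sgRNAs had no count in OE19, against 22 and 38 in N87. The 100 most abundant sgRNAs took 0.412% and 0.408% of counts in OE19 and 0.417% and 0.414% in N87. With 2 libraries against 2 the exact permutation test cannot go below p = 0.333, so no difference in shape could pass a threshold.

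The correlation of log2 normalized counts was 0.972 between the OE19 replicates and 0.970 between the N87 replicates, and 0.960 to 0.971 between libraries of different lines. Replicates of a line were thus scarcely more alike than libraries of different lines, and the lines differed in a small share of sgRNAs. Over the control guides alone, the correlation between the log2 ratios of the 2 same-numbered pairs was 0.0335, whereas over all sgRNAs it was 0.15. Counts of the OE19 replicates differed by 1.87 times the variance of pure counting, and those of the N87 replicates by 2.62 times.

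The test of each sgRNA (edgeR quasi-likelihood, adjusted p under 0.05) called 1134 of 122964 sgRNAs higher in OE19, a background of 0.922%, and 53 lower, a background of 0.0431%. Of the 2000 control guides, 0 were called higher and 1 lower. The sgRNA p-values were combined per gene by rank aggregation, and a gene is described by the median log2 fold change over its sgRNAs (OE19 over N87) with the SD over sgRNAs. This called 368 of 20895 genes higher in OE19 (1.76%) and 1 lower (0.00479%). The gene medians of the 368 had a median of 0.48 and reached 1.51, while the SD over the medians of all genes was 0.124. Of the 368 genes, 43 had no sgRNA past the test on its own.

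Summed over a gene's sgRNAs, normalized counts were higher in both OE19 libraries than in both N87 libraries for each of the 368 genes, as they were for 20.3% of all genes. The log2 ratio was above 0 in both same-numbered pairs for 366 of the 368. The 368 were called from these same libraries, so this sign is largely set by the call and is no replication. The share over all genes was not counted. Among the 368, the ratio was larger in the second pair for 333, with a median of 0.62 in pair 2 and 0.34 in pair 1. The number of calls moved with the libraries used: 206 genes were called higher without N87 replicate 2, 183 without OE19 replicate 2, 314 without OE19 replicate 1 and 345 without N87 replicate 1, and 116 of the 368 were called in all 4 of these fits.

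**Figure D1:**
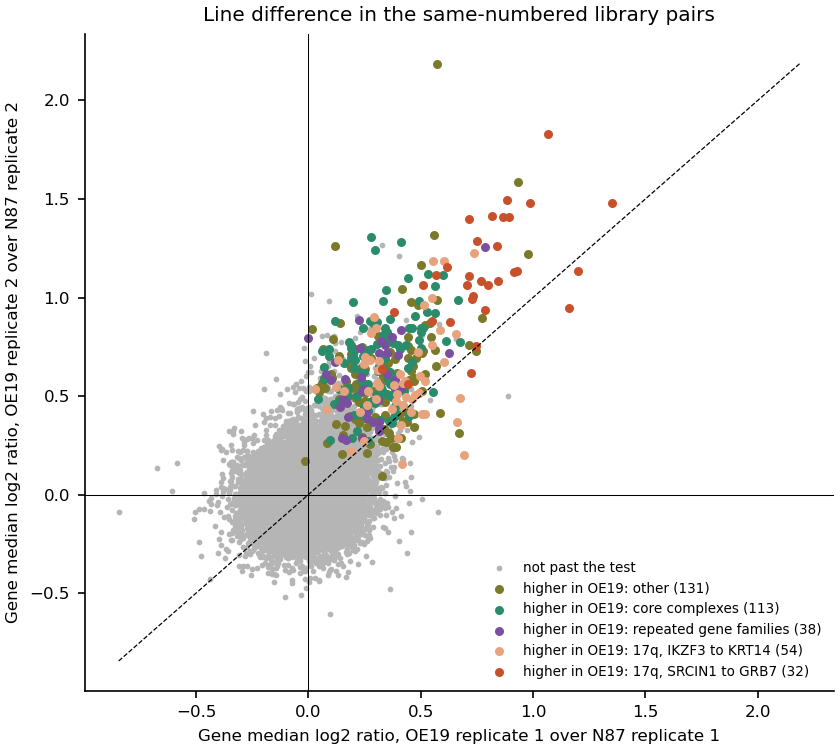
Gene median log2 ratio in the second library pair (vertical axis) against the first (horizontal axis), 1 point per gene, coloured for the 368 genes higher in OE19 and grey for the rest. Of the coloured points, 333 lie above the dashed line of equal values, and 366 lie above 0 in both pairs. The coloured genes were called from these same libraries.

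By placement on GRCh37, chromosome 17 held 128 of the 368 genes, 11% of the 1167 genes tested and placed there, and the share on the other chromosomes was at most 2.6%. Of 18 called genes with medians over 1, 14 lay by this placement in the 17q segments described next. The called genes hsa-mir-6510, hsa-mir-6779 and hsa-mir-6867 were not placed on GRCh37, so the counts by GRCh37 position leave them out, and they are described with the microRNA genes of the region. Of 25 genes in a list of ERBB2 neighbours, 20 were higher in OE19 and the list's median was 0.84, beside -0.01 over all genes. Drawn in order along the chromosome, the gene medians formed steps. The edges of these steps were placed after the values were seen, so the segments below are a description with no test. Copy number was not measured in these files, and its part in the result was not tested.

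The first segment ran from SRCIN1 to GRB7 (17:36686266-37903544, GRCh37), and 32 of the 33 genes placed in it were called, the exception being hsa-mir-4727 with a median of 0.56. Its gene medians ran from 0.56 to 1.51 with a median of 0.90, and 130 of its 190 sgRNAs passed the test on their own. The level of its sgRNAs relative to control guides, on the log2 scale, was -0.11 and -0.13 in OE19, against -0.89 and -1.27 in N87. The lines did not overlap, the level was close to that of control guides in OE19, and the N87 replicates lay further from each other than the OE19 replicates did.

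The second segment ran from IKZF3, the neighbour of GRB7, to KRT14 (17:37913971-39743147) and held 83 placed genes, 54 of them called. Its gene medians were all above 0, with a median of 0.43, and its level relative to control guides was -0.11 and -0.10 in OE19, against -0.49 and -0.67 in N87. Without OE19 replicate 1, 38 of these genes were called, and without OE19 replicate 2, 37.

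A stretch of 9 genes, from KRT16 to NT5C3B, interrupted the pattern. Its median was -0.0040 and 1 of its genes was called, the translation initiation factor gene EIF1 at 0.57 ± 0.86 (SD over 6 sgRNAs). EIF1 did not pass without OE19 replicate 1, OE19 replicate 2 or N87 replicate 2. Here the level was low in all libraries, -0.55 and -0.44 in OE19 and -0.62 and -0.54 in N87. In the next 4 genes, from KLHL10 to TTC25, all 4 were called, with a median of 0.44 and levels of -0.01 and -0.0042 in OE19, against -0.35 and -0.49 in N87. In the 10 genes after TTC25, 0 were called and the median was -0.05. In the 10 genes before SRCIN1 the median was 0.19 and 3 were called, namely TBC1D3F and TBC1D3, copies of a repeated family, and MRPL45 at 0.23.

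**Figure D2:**
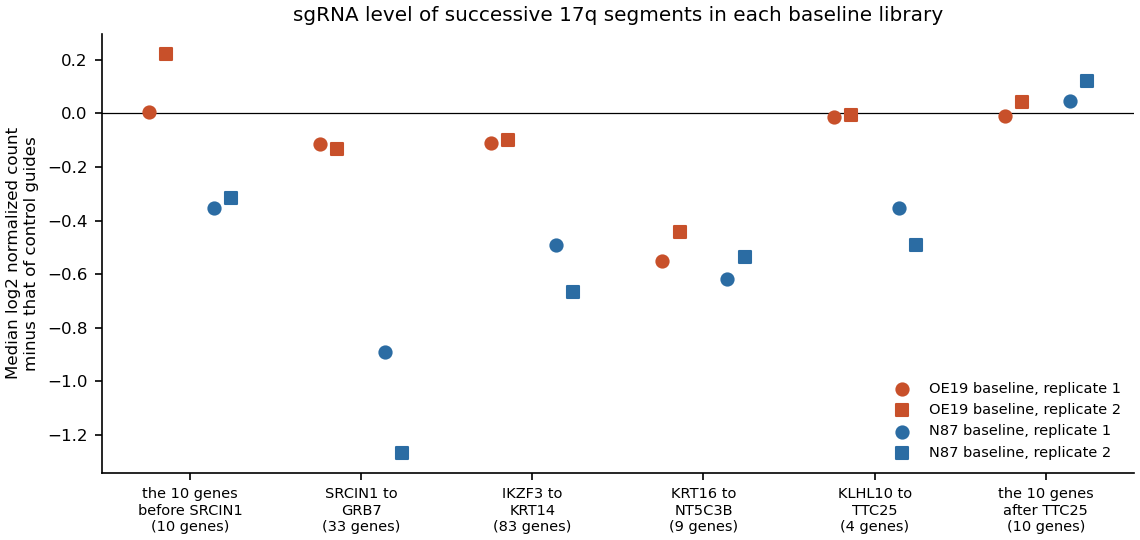
Median log2 normalized count of the sgRNAs of successive 17q segments minus that of control guides (vertical axis), 1 point per baseline library, OE19 left of N87. In SRCIN1 to GRB7 the OE19 libraries sit at -0.11 and -0.13 and the N87 libraries at -0.89 and -1.27, while from KRT16 to NT5C3B all 4 libraries lie between -0.62 and -0.44.

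The vehicle libraries, taken 14 days later from the same infected cells, showed steps at the same places. The vehicle medians were 1.07 from SRCIN1 to GRB7, 0.64 from IKZF3 to KRT14 and 0.55 from KLHL10 to TTC25. In the stretch from KRT16 to NT5C3B the vehicle median was -0.65, with levels relative to control guides of -1.66 and -1.65 in OE19, against -1.13 and -1.05 in N87. In that stretch the vehicle levels were lower in OE19 than in N87, and 2 genes, LEPREL4 and NT5C3B, were called lower in OE19. Whether the line difference changed between baseline and vehicle was not tested.

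**Figure D3:**
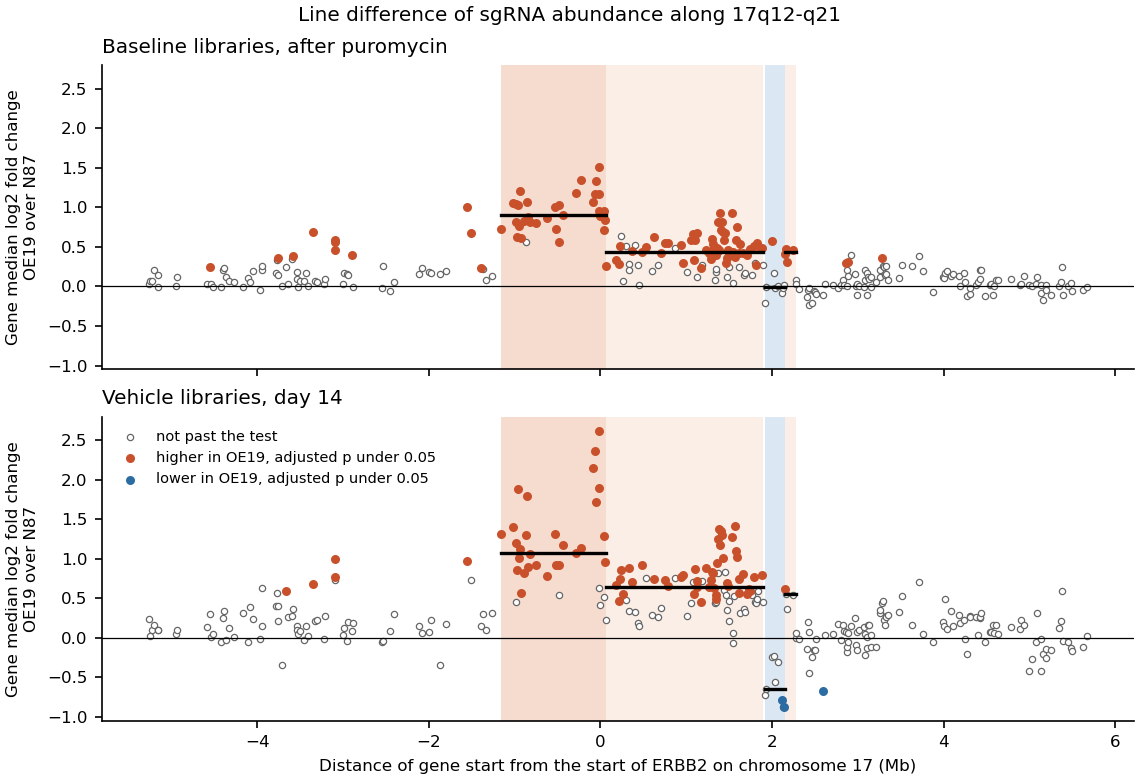
Gene median log2 fold change of OE19 over N87 (vertical axis) by distance of the gene from ERBB2 on chromosome 17 in Mb (horizontal axis), for the baseline libraries above and the vehicle libraries below. Shading marks the 4 segments and black bars their medians, 0.90, 0.43, -0.0040 and 0.44 at baseline.

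The gene with the highest median of the 368 was a neighbour of ERBB2. TCAP, which encodes a titin-binding protein of muscle sarcomeres, had 1486 and 1621 normalized counts in OE19, against 689 and 467 in N87, summed over 6 sgRNAs. Its median log2 fold change was 1.51 ± 0.28 (SD over 6 sgRNAs, adjusted p = 1.23e-11 by rank aggregation of edgeR's p-values). STARD3, a sterol transporter of late endosomes, had 1278 and 1271 in OE19, against 595 and 505 in N87, and its median was 1.33 ± 0.46 (adjusted p = 9.43e-12 by the same test). All 6 sgRNAs of TCAP, STARD3 and CWC25 passed the test on their own, and no other gene had 6 of 6.

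ERBB2, the receptor tyrosine kinase that lapatinib inhibits, had 842 and 822 normalized counts in OE19, against 543 and 432 in N87. The 2 pairs of libraries did not overlap, and the median was 0.89 ± 0.32 (SD over 6 sgRNAs, adjusted p = 5.11e-06 by rank aggregation of edgeR's p-values). Its 6 sgRNAs ranged from 0.34 to 1.18, and 3 of them passed on their own. ERBB2 was therefore not the gene of largest difference in its neighbourhood, and 0.89 is close to the median of the segment, 0.90. In the vehicle libraries the ERBB2 median was 0.42 and did not pass (adjusted p = 1), while TCAP stood at 2.62.

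CDK12, a kinase of transcription elongation, had a median of 1.35 ± 0.72, from 1523 and 1543 normalized counts in OE19 and 866 and 758 in N87. PSMB3, a proteasome subunit, had a median of 1.21 ± 0.38, from 903 and 950 in OE19 and 515 and 358 in N87. MED1, a Mediator subunit, had 1.18 ± 0.57. GRB7, an adaptor that binds HER2, had 0.84 ± 0.16, and PPP1R1B and PNMT had 1.16 and 1.17. MLLT6 and CWC25 in the same segment had 1.04 and 0.83. Each of these was called in all 4 fits that left out a library.

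Beyond GRB7 the differences were smaller. RARA, the retinoic acid receptor alpha gene, had 1994 and 1982 normalized counts in OE19, against 1315 and 1210 in N87, and a median of 0.62 ± 0.19. TOP2A, the DNA topoisomerase of dividing cells, had a median of 0.43 ± 0.26 and SMARCE1, a SWI/SNF subunit, 0.53 ± 0.26. Neither TOP2A nor SMARCE1 passed without OE19 replicate 2 or without N87 replicate 2. Of 61 keratin and keratin-associated genes of 17q21, a set assembled after the values were seen, 42 were called and 59 had medians above 0. The values over all genes were 1.76% called and 9754 of 20895 with medians above 0. KRT19, a keratin of simple epithelia, had 1182 and 1231 in OE19 against 899 and 856 in N87, and the hair-shaft gene KRTAP4-7 had 1112 and 1124 in OE19 against 674 and 535 in N87. The libraries of the lines did not overlap for either gene, and the medians were 0.51 ± 0.24 for KRT19 and 0.93 ± 0.51 for KRTAP4-7. Many KRTAP genes are close copies of each other, so their sgRNAs may share targets and their values are uncertain as single genes.

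MicroRNA genes, which GeCKO v2 targets with up to 4 sgRNAs each, give the region further targets that code for no protein. Of 1846 microRNA genes tested, 15 were called higher, or 0.813%, which is below the 1.76% of all genes. These shares are not alike in basis, since microRNA genes have fewer sgRNAs each and all of them are in library A. Of the library A sgRNAs 420 of 65150 were called higher, against 714 of 57814 in library B. RefSeq places 9 of the tested microRNA genes between SRCIN1 and KRT14, and 6 of these were among the 15. Their mature sequences are shown because they are the products of these targets, from RefSeq (GRCh38.p14), 5′ to 3′, with the seed (bases 2 to 8) in capitals, for the 5 that the table holds.
hsa-miR-4734: gCUGCGGGcugcggucagggcg
hsa-miR-6779-5p: cUGGGAGGggcuggguuuggc
hsa-miR-6779-3p: aAGCCCUGucuccucccaucu
hsa-miR-4728-5p: uGGGAGGGgagaggcagcaagca
hsa-miR-4728-3p: cAUGCUGAccucccuccugccccag
hsa-miR-6867-5p: uGUGUGUGuagaggaagaaggga
hsa-miR-6867-3p: cUCUCCCUcuuuacccacuag
hsa-miR-6510-5p: cAGCAGGGgagagagaggaguc
hsa-miR-6510-3p: cACCGACUcugucuccugcag

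No seed is shared between these 9 strands. hsa-mir-4728 lies in an intron of ERBB2 (17:37882748-37882814, GRCh37) and had 408 and 465 normalized counts in OE19, against 306 and 228 in N87, with a median of 0.71 ± 0.10 (SD over 4 sgRNAs). hsa-mir-6510, inside KRT15, had 394 and 367 in OE19 against 205 and 157 in N87, with a median of 1.09 ± 0.08, and the libraries of the lines did not overlap. hsa-mir-6779 lies inside LASP1, hsa-mir-6867 inside RAPGEFL1 and hsa-mir-4726 inside MLLT6, and their medians were 0.57, 0.59 and 0.63. The medians of hsa-mir-4727, hsa-mir-6866 and hsa-mir-6884, which did not pass, were 0.56, 0.56 and 0.40. All 9 microRNA genes of the region thus had medians above 0. Of the 6 called, hsa-mir-4726 and hsa-mir-6510 were called in all 4 fits that left out a library. hsa-mir-4728 was not called without OE19 replicate 2 or without N87 replicate 2.

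Among the other 9 called microRNA genes, hsa-mir-3929 had the largest median, 1.40 ± 0.53, from 189 and 276 normalized counts in OE19 and 142 and 101 in N87. hsa-mir-566 had 1.14 ± 0.59 and hsa-mir-1273d 0.97 ± 0.84. These genes had low counts, hsa-mir-3929 was not called without N87 replicate 2, and for hsa-mir-3929 the log2 ratio was 0.57 in pair 1 and 2.19 in pair 2. Of 1470 tested microRNA genes with a hairpin sequence, 1454 held a candidate Cas9 site, 20 bases followed by NGG on either strand. Exact copies of these sites were counted in GRCh37. The sequences of the library's own sgRNAs were not available, so these are not counts of sgRNA targets. The 1454 included 8 of the 15 called genes, and hsa-mir-3929, hsa-mir-566 and hsa-mir-1273d were not among them. Of 1159 microRNA genes whose candidate sites occur once, 6 were called, and RefSeq places all 6 on chromosome 17. Of 19 whose most frequent site has 10 to 99 copies, 2 were called, hsa-mir-1299 with 39 copies and hsa-mir-8078 with 20. hsa-mir-1299 was not called in any of the 4 fits that left out a library, and hsa-mir-8078 was not called without N87 replicate 1, N87 replicate 2 or OE19 replicate 2. Of 2 with 100 or more copies, hsa-mir-6127 had a median of 0.60 (adjusted p = 0.417 by rank aggregation of edgeR's p-values) and hsa-mir-620 one of -0.24.

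Genes in repeated families form a further group, chosen by name after the values were seen. Copies of their sgRNA targets were not counted. Of 181 such genes, 38 were called higher, 148 had medians above 0, and the median was 0.14. Over all genes 1.76% were called, 9754 of 20895 had medians above 0, and the median was -0.01. The family TBC1D3 of 17q12 gave 6 calls, with TBC1D3F at 1.01 ± 0.27 from 1065 and 1113 normalized counts in OE19 and 632 and 496 in N87. The deubiquitinase family USP17L on chromosome 4 gave 12 calls, with medians between 0.21 for USP17L13 and 0.52 for USP17L17. USP17L24 stood at 0.23 ± 0.29, and the window of 15 neighbouring genes around USP17L24 had the highest median outside chromosome 17, 0.36. SPDYE genes gave 5, GOLGA6, NPIP and AGAP genes 3 each and POM121 genes 2. sgRNAs of these families may cut several copies and the members are not independent of each other. Without OE19 replicate 2, 14 of the group were called, and without N87 replicate 2, 14.

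Genes of the core machinery of the cell made up a further large group. Of the 368, 113 stood in the lists of core complexes below and outside the 17q segments and repeated families. sgRNAs of these lists lay below the control guides in both N87 libraries. In all of them but the vacuolar ATPase and the mitochondrial ribosomal proteins, both N87 libraries lay below both OE19 libraries. This order alone does not mark the core lists. Over all genes the levels were -0.017 and 0.033 in OE19, against -0.018 and -0.067 in N87. Of all genes, 1.76% were called and 9754 of 20895 had medians above 0. The mitochondrial ribosomal proteins stood at -0.11 and -0.02 in OE19, against -0.10 and -0.19 in N87. The cytosolic ribosomal proteins had 30 of 89 genes called, a list median of 0.31, and levels relative to control guides of -0.25 and -0.16 in OE19, against -0.46 and -0.68 in N87. The core spliceosome had 19 of 48 genes called and a median of 0.29, and all 48 of its gene medians were above 0. The proteasome had 15 of 39 called and a median of 0.32, RNA polymerase II 6 of 12 and a median of 0.40, and the genes of mitosis and chromosome segregation 10 of 41 and a median of 0.20.

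**Figure D4:**
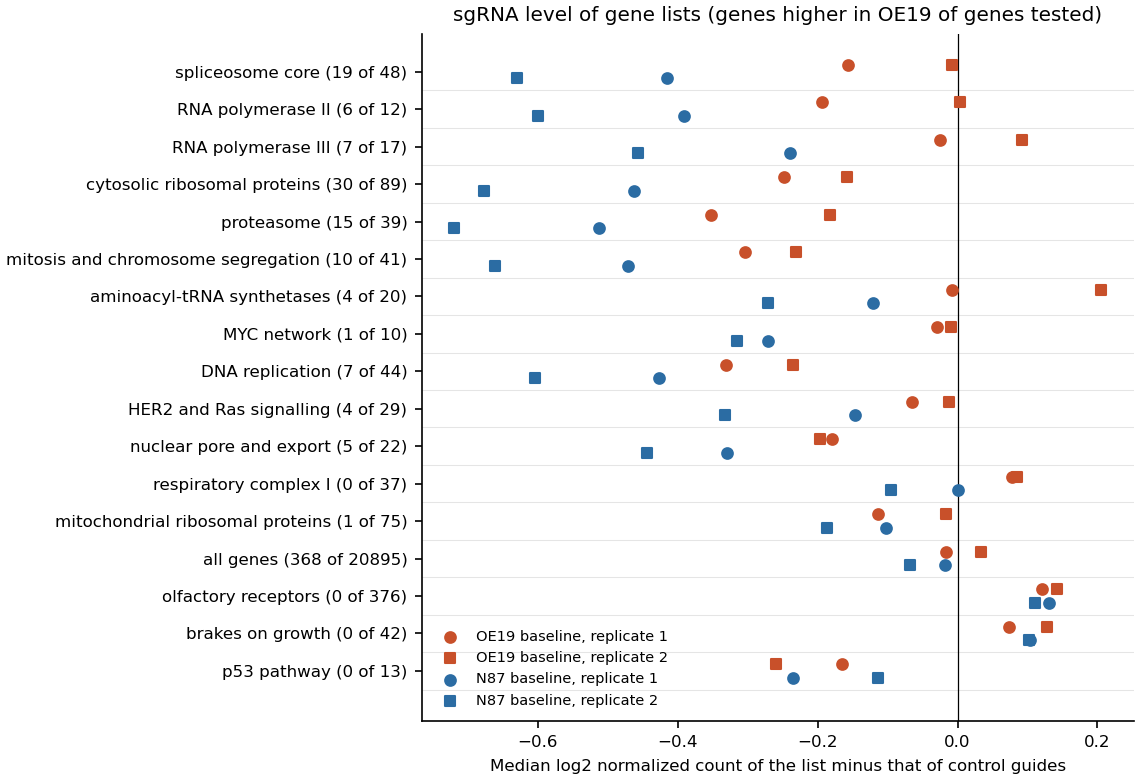
Median log2 normalized count of each gene list minus that of control guides (horizontal axis) in each baseline library, with the number of genes higher in OE19 of those tested. Both OE19 libraries sit above both N87 libraries for RNA polymerase II, the cytosolic ribosomal proteins, the proteasome and the spliceosome, for the spliceosome at -0.16 and -0.0084 against -0.41 and -0.63, while the mitochondrial ribosomal proteins, brakes on growth, olfactory receptors and the p53 pathway overlap between the lines. All genes together show the same order, at -0.017 and 0.033 against -0.018 and -0.067.

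The depth of these levels differed between replicates too. For the proteasome the levels were -0.35 and -0.18 in OE19, against -0.51 and -0.72 in N87. OE19 replicate 1 lay below OE19 replicate 2 in each core list except nuclear pore and export, and N87 replicate 2 was the lowest library in each of them. Called counts moved with these libraries. Without OE19 replicate 2, 17 ribosomal, 8 proteasome and 5 spliceosome genes were called, and without N87 replicate 2, 19, 9 and 8.

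Of the other core lists, DNA replication had 7 of 44 genes called, translation initiation factors 6 of 55, nuclear pore and export 5 of 22, coatomer and secretory transport 5 of 24, aminoacyl-tRNA synthetases 4 of 20, the chaperonin CCT 1 of 8 and the vacuolar ATPase 1 of 24. Mediator had 1 of 32 called, MED1, and SWI/SNF 1 of 19, SMARCE1, both on 17q. The mitochondrial ribosomal proteins had 1 of 75 called, MRPL45, which lies next to the first 17q segment. The share called over all genes was 1.76%, beside 1.33% in this list, 3.12% in Mediator and 4.17% in the vacuolar ATPase. By rank aggregation of edgeR's p-values 0 of 37 genes of respiratory complex I were called, while 5 were higher at an unadjusted p under 0.05, beside 1159 of 20895 over all genes, and 0 were called with DESeq2. The mitochondrial ribosomal proteins had a median of 0.05 and complex I one of 0.06, beside 0.31 for the cytosolic ribosomal proteins.

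RPL3, a protein of the large ribosomal subunit encoded on chromosome 22, had 1170 and 1293 normalized counts in OE19, against 849 and 708 in N87, and a median of 0.66 ± 0.10 (SD over 6 sgRNAs, adjusted p = 4.71e-07 by rank aggregation of edgeR's p-values). RPL23A and RPL23 stood at 0.86 and 0.87, and both are encoded on chromosome 17, RPL23 inside the first segment. PSMA6 had a median of 0.73 ± 0.53, from 726 and 848 in OE19 and 563 and 417 in N87, and the splicing factor BUD31 had 0.76 ± 0.30, from 900 and 1135 in OE19 and 645 and 497 in N87. BUD31 did not pass without OE19 replicate 2. KPNB1, the importin that carries proteins into the nucleus, had 0.83 ± 0.29, and CCT8, a chaperonin subunit, 0.48 ± 0.16.

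RNA polymerase III, which transcribes tRNA and 5S rRNA genes, was added to the lists after the values were seen. Of 17 of its genes 7 were called and 16 had medians above 0, beside 1.76% and 9754 of 20895 over all genes. BRF1, a subunit of its initiation factor TFIIIB, had 1817 and 1915 normalized counts in OE19, against 1246 and 1071 in N87, with a median of 0.72 ± 0.15. POLR3A, the largest subunit of the enzyme, had 1350 and 1512 in OE19, against 980 and 700 in N87, with a median of 0.88 ± 0.26. Both were called in all 4 fits that left out a library.

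WEE1, which holds CDK1 inactive before mitosis, had 1026 and 1059 normalized counts in OE19, against 723 and 560 in N87, with a median of 0.91 ± 0.48. CHEK1, the kinase that restrains damaged or stalled DNA replication, had 1302 and 1371 in OE19 against 905 and 817 in N87, with a median of 0.81 ± 0.26. PLK1, a mitotic kinase, had 936 and 1045 in OE19 against 692 and 568 in N87, with a median of 0.80 ± 0.51. WEE1 and PKMYT1, its close relative at 0.39 ± 0.54, were named after their values were seen, and PKMYT1 was not called without N87 replicate 2. Of the list of double-strand break repair, CHEK1 was the 1 gene of 33 called, or 3.03%, beside 1.76% of all genes.

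**Figure D5:**
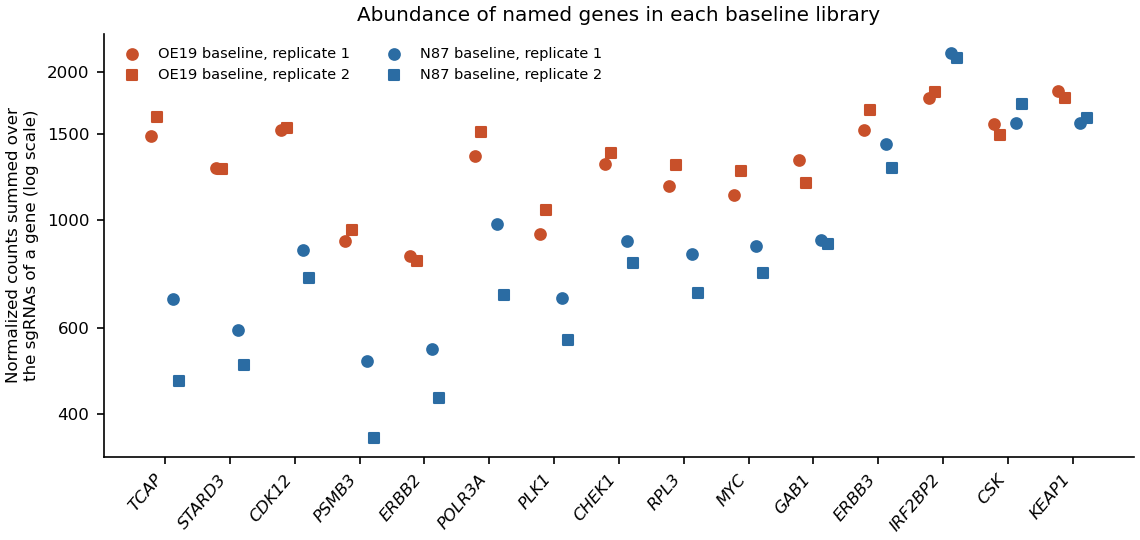
Normalized counts summed over the sgRNAs of a gene (vertical axis, log scale) in each baseline library, OE19 left of N87 for each gene. From TCAP to ERBB3 both OE19 libraries lie above both N87 libraries, for IRF2BP2 below them, and for CSK the lines lie close together.

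In the list of HER2 and Ras signalling, 4 of 29 genes were called, ERBB2, ERBB3, GAB1 and MTOR, and the list's median was 0.10. Among all genes 1.76% were called and the median was -0.01. GAB1, a docking protein downstream of receptor tyrosine kinases, had 1327 and 1187 normalized counts in OE19, against 910 and 892 in N87, and a median of 0.49 ± 0.17. ERBB3, the partner receptor of HER2, had 1523 and 1673 in OE19 against 1427 and 1278 in N87, with a median of 0.32 ± 0.37. MTOR, the growth-controlling kinase, had 1342 and 1241 in OE19 against 1029 and 943 in N87, with a median of 0.44 ± 0.23. GAB1 was not called without OE19 replicate 1, MTOR not without OE19 replicate 2, and ERBB3 neither without OE19 replicate 2 nor without N87 replicate 2. EGFR, the other target of lapatinib, had a median of 0.23 ± 0.20 and did not pass (adjusted p = 1).

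MYC, the growth transcription factor, had 1122 and 1256 normalized counts in OE19, against 884 and 776 in N87, with a median of 0.59 ± 0.26. It was the 1 gene called of 10 in its network, beside 1.76% of all genes. BCL2L1, which encodes the survival protein BCL-XL, had 1732 and 1779 in OE19 against 1451 and 1454 in N87, with a median of 0.65 ± 0.67, and CFLAR, an inhibitor of caspase-8, had 0.44 ± 0.49. The library B sgRNAs of BCL2L1 stood at 0.82, 1.56 and 1.16 and each passed on its own. Those of library A stood at 0.47, -0.11 and -0.07 and did not pass. BCL2L1 and CFLAR, chosen after their values were seen, also passed in the vehicle libraries, with medians of 0.90 and 0.46.

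The opposite direction was nearly empty. IRF2BP2, a transcriptional co-repressor, was the 1 gene called lower in OE19, with 1772 and 1822 normalized counts in OE19, against 2192 and 2145 in N87, and a median of -0.22 ± 0.23 (adjusted p = 0.0119 by rank aggregation of edgeR's p-values). It was lower in the vehicle libraries too, at -0.80. Without any 1 of the 4 libraries IRF2BP2 did not pass, its adjusted p reaching 0.444 without N87 replicate 2. The next genes by p were FRMD6 at -0.34, CDAN1 at -0.05, FOXO4 at -0.17 and MKKS at -0.25, with adjusted p from 0.134 to 0.209. Among brakes on growth, whose knockout can speed division, 0 of 42 genes were called in either direction by rank aggregation of edgeR's p-values, and 11 had medians above 0, against 9754 of 20895 over all genes. At an unadjusted p under 0.05, 10 of these brakes were lower in OE19 and 1 higher, beside 1075 lower and 1159 higher of 20895 over all genes, and with DESeq2 0 were called. The p53 pathway had 0 of 13 genes called by rank aggregation and by DESeq2, with 1 lower and 0 higher at an unadjusted p under 0.05. Olfactory receptors, a family of smell receptors, also had 0 of 376 called by rank aggregation and by DESeq2, with 30 lower and 1 higher at an unadjusted p under 0.05, to be read beside the same 1075 and 1159 over all genes.

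The genes followed in drug selection that are named here did not pass the test at baseline. With 2 libraries per line this does not show that they were equal. CSK, the kinase that inhibits SRC family kinases, had 1569 and 1490 normalized counts in OE19, against 1575 and 1725 in N87, with a median of -0.16 ± 0.16 (adjusted p = 0.952 by rank aggregation of edgeR's p-values). The medians were -0.13 for BAX, 0.19 for KEAP1, -0.10 for PRR24, -0.01 for TADA1, -0.07 for KCTD5 and -0.01 for NF1, and none of these passed. MED24, a Mediator subunit encoded in the second 17q segment, had 0.20 ± 0.39 and an adjusted p of 0.0854 at baseline, and 0.88 with an adjusted p of 0.00134 in the vehicle libraries.

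Single sgRNAs did not stand far apart. Of 123411 sgRNAs, 0 differed by over 8-fold in normalized counts between every OE19 library and every N87 library, and at 4-fold there were 0 higher in OE19 and 1 higher in N87. The largest called difference upward was an sgRNA of SF3B1, a spliceosome subunit, with 40.7 and 80.5 normalized counts in OE19, against 18.04 and 7.46 in N87, a log2 fold change of 2.21. An sgRNA of C17orf96, in the first 17q segment, had 102 and 93.9 in OE19 against 26.2 and 15.9 in N87. An sgRNA of hsa-mir-1273d had 47.6 and 44.7 in OE19 against 18.04 and 2.80 in N87. These sgRNAs were picked by their fold change. The libraries of the lines did not overlap for any of them, and the share over all sgRNAs was not counted. An sgRNA of STARD3 followed at 2.07, with 76.7 and 74.9 in OE19 and 18.04 and 17.7 in N87, and 1 of NME7 at 2.05, with 56.9 and 13.4 in OE19 and 4.92 and 12.1 in N87.

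Downward, the largest called difference belonged to 1 library. An sgRNA of CYGB, the cytoglobin gene, had 158 and 196 normalized counts in OE19, against 2482 and 189 in N87, so that N87 replicate 2 lay between the OE19 libraries. Its log2 fold change of -2.93 was carried by N87 replicate 1, and the other 5 sgRNAs of CYGB lay between -0.14 and 0.20. An sgRNA of DNAJC11 showed the same pattern, with 112 and 124 in OE19 and 613 and 138 in N87. An sgRNA of UNC5D, by contrast, was low in both OE19 libraries, 8.13 and 7.83, against 22.1 and 36.4 in N87. The next, of S1PR4 and CCNJ, had log2 fold changes of -1.24 and -1.13.

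In the vehicle libraries 140 of 20892 genes were higher in OE19 (0.67%) and 84 lower (0.402%). Of the baseline calls 99 were higher in both comparisons, which is 26.9% of the baseline calls and 70.7% of the vehicle calls, and 349 of the 367 baseline calls tested there had a vehicle median above 0. From SRCIN1 to GRB7, 28 of 33 genes were called higher in the vehicle libraries, while the cytosolic ribosomal proteins had 3 and the spliceosome 1. Without OE19 vehicle replicate 2, 49 genes were called higher and 33 lower, and without N87 vehicle replicate 2, 71 higher and 43 lower. The vehicle medians of the ribosomal and spliceosome lists were 0.25 and 0.36, beside 0.31 and 0.29 at baseline, and the sgRNA levels of these lists were lower than at baseline in both lines, for the ribosomal proteins -0.90 and -0.76 in OE19 and -0.95 and -1.26 in N87. Whether fewer calls meant a smaller difference was not tested.

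Windows of 15 neighbouring genes describe position without the segment edges. Among 19717 windows, the 3 highest that do not overlap were all on 17q, centred on FBXL20 with a median of 1.03 and 15 of 15 genes called, on CISD3 with 0.81 and 12 called, and on SMARCE1 with 0.53 and 11 called. The central genes had medians of 0.90 for FBXL20, 1.03 for CISD3 and 0.53 for SMARCE1. The 3 lowest that do not overlap were shallow, -0.14 around hsa-mir-655 on chromosome 14, -0.12 around SFXN2 on chromosome 10 and -0.12 around UCP2 on chromosome 11, and held 0 genes called in either direction. Elsewhere on chromosome 17, RPL23A lay in a run with SUPT6H, PROCA1 and RAB34, chosen after their values were seen, which had medians of 0.44, 0.42 and 0.53 and were called. SUPT6H and RAB34 did not pass without OE19 replicate 2 or N87 replicate 2, and PROCA1 not without N87 replicate 1.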

How the data were processed

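Genomic DNA of infected cells was amplified over the sgRNA insert and sequenced. The deposited table holds raw counts per sgRNA, which the authors made by assigning reads to the guide library, and the submitters' processing notes name Bowtie2 2.3.2, FastQC 0.11.5 and MAGeCK 0.5.6. Library totals are given with the results, and precision is set by 2 libraries per line, each a separate infection. The members and gene lists were chosen with earlier results of these data known.

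Counts were fitted per sgRNA with edgeR 4.0.16 in R 4.3.3 (quasi-likelihood test, TMM factors, at least 40 counts over the 4 libraries, OE19 over N87). One-sided p-values were combined per gene by robust rank aggregation (ranks under 0.05, at least 2 sgRNAs), with Benjamini-Hochberg adjustment over all genes of a direction at 0.05. Normalized counts are counts divided by median-of-ratios size factors, and 1 was added before log2. The procedure was tested on simulated data. Replicate numbers did not pair the libraries (r = -0.0381).

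Named genes were the 15 of lowest p higher in OE19, the 5 of lowest p lower in OE19, list members past 0.05, the 5 sgRNAs of largest fold in each direction, the genes followed in the drug screen with the drug targets, and the centres of 6 windows. Other genes, such as those at segment edges or lost in a fit, were named after their values were seen. Of 20915 gene names, 20096 were placed on GRCh37 (GENCODE), and 24 names had been turned into dates or numbers. Hairpins of 1470 of 1846 microRNA genes were matched to RefSeq. Alternatives were other scaling, DESeq2 1.42.0, other count minimums, a replicate block, a joint fit with the vehicle libraries, another rank threshold, counts summed per gene and leaving out each library.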

Additional observations from a re-analysis of the deposited data

How the results depend on the processing

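The number of genes higher in OE19, 368, was 275 to 440 under other scaling, DESeq2, other count minimums, the joint fit with the vehicle libraries and another rank threshold. It was 710 with counts summed per gene, which also gave 46 lower genes, and 183 to 345 when 1 library was left out. With the replicate block it was 369, of which 357 were also called without the block. Without the 17q genes and repeated families, a setting chosen after seeing the data, 266 were called. Lower genes numbered 1, or 2 with libraries A and B scaled separately and 0 when any library was left out.

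The 1134 sgRNAs called higher became 295 with DESeq2, 27 in the joint fit of 8 libraries and 417 to 1974 with a library left out. The 53 called lower became 16 with factors from control guides, 1 with DESeq2, 0 in the joint fit and 19 to 308 with a library left out. The cause of these shifts was not tested. In the vehicle libraries, leaving out a library gave 49 to 160 higher genes and 33 to 73 lower. At 4-fold in place of 8-fold, 1 sgRNA was far apart and higher in N87.

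With library A alone the median over sgRNAs was -0.0417 for all genes, -0.0098 for Mediator, -0.0226 for double-strand break repair, 0.0284 for the MYC network, -0.0409 for the G1 cell cycle and -0.0623 for olfactory receptors. With library B alone it was 0.0342 for all genes, 0.0863 for SAGA, 0.0608 for double-strand break repair, 0.195 for the MYC network, 0.0780 for the G1 cell cycle, 0.0862 for selenoproteins and ferroptosis and 0.0125 for olfactory receptors. The core lists were above 0 with either library and larger with B, except nuclear pore and export, at 0.154 with A and 0.101 with B. The cytosolic ribosomal proteins had 0.199 with A and 0.369 with B, the proteasome 0.162 and 0.385, and RNA polymerase II 0.272 and 0.430. HER2 and Ras signalling had 0.0239 and 0.150. Of the library A sgRNAs 420 of 65150 were called higher, against 714 of 57814 in library B. Of 432 values for 36 named genes in 12 settings, 425 kept their side of the threshold. These 36 were the genes of lowest p in each direction, the genes of the drug screen with the drug targets, and the window centres. Other called list members, such as GAB1, MTOR and ERBB3, were left out. Genes picked for their low p lie far from the threshold, so this count does not describe the 368 called genes. Among those of the 36 that were called in the main fit, 0 values reversed in direction. Some genes not called changed sign, such as TADA1, at -0.0093 in the main fit and 0.0074 to 0.0288 with a library left out. IRF2BP2 lost its call without any 1 library and SMARCE1 without OE19 replicate 2 or N87 replicate 2, and FRMD6 passed with libraries A and B scaled separately.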
